A study of Mus musculus with 12 samples.

Results

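Interferon gamma (Ifng) and 5 genes that carry or restrain its signal were followed through MC38 tumors, by the cell cluster that held their transcripts and by the tumor. The genes were chosen by name: the ligand Ifng, the receptor chains Ifngr1 and Ifngr2, the receptor-bound kinases Jak1 and Jak2, and the feedback inhibitor Socs1. All 6 were found among the 27457 gene rows of the count table. The counts came from 93126 single cells of 48 tumors, read from the 5′ ends of transcripts on the 10x Genomics platform, and each comparison below took the tumor as the replicate.

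MC38 is a mouse colon carcinoma line, injected under the skin of female mice of 8 to 12 weeks. Hosts were C57BL/6J (B6) or F1 animals of B6 with a Collaborative Cross (CC) strain, so that every host carried the B6 genome in part or whole. At 75 to 110 mm3 each animal received 200 µg of the control antibody 2A3 (isotype) or of 29F.1A12, which blocks the receptor PD-1 (aPD1), and tumors were taken 48 h later and sorted to 90% CD45+ and 10% CD45- cells. The study's text classed F1 hosts of CC001/UncJ, CC002/UncJ and CC075/UncJ as responders and those of CC036/UncJ, CC079/TauUncJ and CC080/TauUncJ as non-responders, and left B6 and CC007/UncJ unclassed. This gave 10 responder isotype, 10 responder aPD1, 9 non-responder isotype and 9 non-responder aPD1 tumors, with 10 unclassed tumors that enter as levels alone. Class is a property of the strain, and each class holds 3 strains, so strain and class cannot be told apart beyond that number.

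Interferon gamma is a cytokine made mainly by activated T cells and natural killer (NK) cells. It binds a receptor of Ifngr1 and Ifngr2 chains, which carry the kinases Jak1 and Jak2. Signalling from these kinases switches on genes for antigen presentation, chemokines and guanylate-binding proteins. Socs1 is among the genes induced, and its product blocks the kinases, which closes a negative feedback loop. In tumors the cytokine is best known for its action on macrophages and on the tumor cells themselves.

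The genes lie on the mouse GRCm38 assembly as protein-coding genes of the GENCODE annotation. Ifng (chromosome 10, 118441046 to 118445892) and Ifngr1 (chromosome 10, 19591949 to 19610229) are on the plus strand. Ifngr2 (chromosome 16, 91547072 to 91565623) and Jak2 (chromosome 19, 29251828 to 29313080) are on the plus strand as well. Jak1 (chromosome 4, 101152367 to 101265282) and Socs1 (chromosome 16, 10782240 to 10785536) are on the minus strand.

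The 250 bases before the RefSeq start (build GRCm38.p6) were searched for 2 motifs: TTCNNNGAA, a form known from promoters that interferon gamma induces, which reads alike on both strands, and the block TTTC repeated after any 2 bases, the form bound by interferon regulatory factors, sought on both strands (called the TTTC repeat). Of 32851 RefSeq promoters of this length, 7.02% held the first and 2.98% held the second. Of the 6 genes, Ifng held 1 match of the first and Socs1 held 2 overlapping matches of the second, and Ifngr1, Ifngr2, Jak1 and Jak2 held neither. Ifng and Socs1 are printed as the ends of the loop. Igtp, the gene whose levels across clusters were most like those of Socs1, and Gbp7, a guanylate-binding protein gene, are printed as induced genes. Capitals mark motif matches, and the sequence is given 5′ to 3′ on the gene's strand.
Ifng promoter, chr10:118440796-118441045, plus strand: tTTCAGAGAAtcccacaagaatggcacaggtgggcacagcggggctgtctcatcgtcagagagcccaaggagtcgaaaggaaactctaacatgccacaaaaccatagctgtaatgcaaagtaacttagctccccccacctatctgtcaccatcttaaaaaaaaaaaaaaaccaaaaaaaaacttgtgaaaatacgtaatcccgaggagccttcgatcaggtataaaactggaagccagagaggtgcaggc
Socs1 promoter, chr16:10785537-10785786, minus strand: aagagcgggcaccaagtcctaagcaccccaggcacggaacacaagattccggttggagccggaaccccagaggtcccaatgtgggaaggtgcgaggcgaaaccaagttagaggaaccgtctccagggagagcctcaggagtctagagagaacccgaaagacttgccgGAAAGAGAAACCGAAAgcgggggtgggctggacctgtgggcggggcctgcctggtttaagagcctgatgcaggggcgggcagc
Igtp promoter, chr11:58199306-58199555, plus strand: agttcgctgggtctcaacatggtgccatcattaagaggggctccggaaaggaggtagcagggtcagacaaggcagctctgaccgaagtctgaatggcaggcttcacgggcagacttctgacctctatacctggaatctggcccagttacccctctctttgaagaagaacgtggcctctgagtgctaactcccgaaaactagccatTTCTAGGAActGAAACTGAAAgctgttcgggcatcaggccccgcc
Gbp7 promoter, chr3:142530086-142530335, plus strand: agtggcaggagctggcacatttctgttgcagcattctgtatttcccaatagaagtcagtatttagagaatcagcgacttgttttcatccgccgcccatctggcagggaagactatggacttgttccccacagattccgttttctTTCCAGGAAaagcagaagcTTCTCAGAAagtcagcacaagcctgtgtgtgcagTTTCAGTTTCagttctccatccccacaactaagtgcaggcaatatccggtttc
The Ifng match spans -249 to -241 from the start, and the Socs1 matches span -83 to -74 and -77 to -68. Igtp holds TTCNNNGAA at -45 to -37 and the TTTC repeat at -34 to -25. Gbp7 holds TTCNNNGAA at -106 to -98 and -87 to -79, and the TTTC repeat at -53 to -44. Of the 16 listed interferon gamma target genes with a promoter entry, 6 held the first motif and 8 held the second. A match of letters describes the sequence and does not show that a factor binds there.

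The classed tumors held 248 to 2989 cells each, and cells of the series had a median of 3333.5 unique molecular identifiers (UMIs, each taken as 1 captured transcript). Each sequencing library was a pool of 4 hashtagged tumors, numbered 1 to 12. Levels are given as CPM, the UMIs of a gene per 1000000 UMIs of the cells summed. The smallest classed tumor, a CC002 isotype tumor of pool 12 with 248 cells, is named where it decides a value. Barcodes seen in more than 1 library numbered 4990 and covered 10.9% of cells. Hashtags were not shared by isotype and aPD1 tumors, and 9 of 10 responder tumors in each treatment carried a hashtag pair carried by 1 of 9 non-responder tumors, so hashtag cannot be told apart from treatment and hardly from class. Of 27 deposited clusters, 9 carried T or NK cell markers (12021 cells) and 10 carried macrophage markers (68059 cells). Cluster 3 (2809 cells) and cluster 13 (631 cells) both carried Cd8a, at 731 and 483 CPM, and Cd3e, at 1170 and 742 CPM. The NK marker Ncr1 stood at 0.7 and 2.0 CPM in clusters 3 and 13. Cluster 12, counted with the T/NK clusters, also carried the macrophage genes Lyz2 (2866 CPM) and C1qa (804 CPM).

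Ifng, the ligand, was a transcript of T/NK clusters, and its level spanned a wide range among them. Cluster 13 stood at 6314 CPM, cluster 10 at 680 CPM, cluster 3 at 534 CPM and cluster 1 at 368 CPM. Clusters 12, 7, 8 and 24 followed at 354, 256, 166 and 162 CPM, and cluster 23 stood at 9.31 CPM. These levels sum the UMIs of all tumors, and the medians over tumors with at least 10 cells of the cluster differed from them: 155 CPM in cluster 1, 98.0 in cluster 12 (1 tumor at 5996), 158 in cluster 7, 56.0 in cluster 8 (1 tumor at 4873) and 90.1 in cluster 24. By those medians cluster 7 stood above cluster 1 and cluster 8 stood below cluster 24. In the order of summed levels, the steps from 13 to 10, from 3 to 1 and from 24 to 23 were larger than the spread over tumors, and no other neighbouring pair was. Macrophage clusters ranged from 0.30 to 1.31 CPM, and the highest cluster outside T/NK cells was the fibroblast-like cluster 22 at 4.48 CPM. The genes whose levels over the 27 clusters were most like Ifng were Klrc1 (Pearson r 0.970 on the log2 scale), Cd160 (0.959), Nkg7 (0.955), Xcl1 (0.954) and Cd27 (0.951). Each is a receptor, granule protein or chemokine of lymphocytes. These correlations describe 27 clusters of the same libraries and carry no test.

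**Figure D1:**
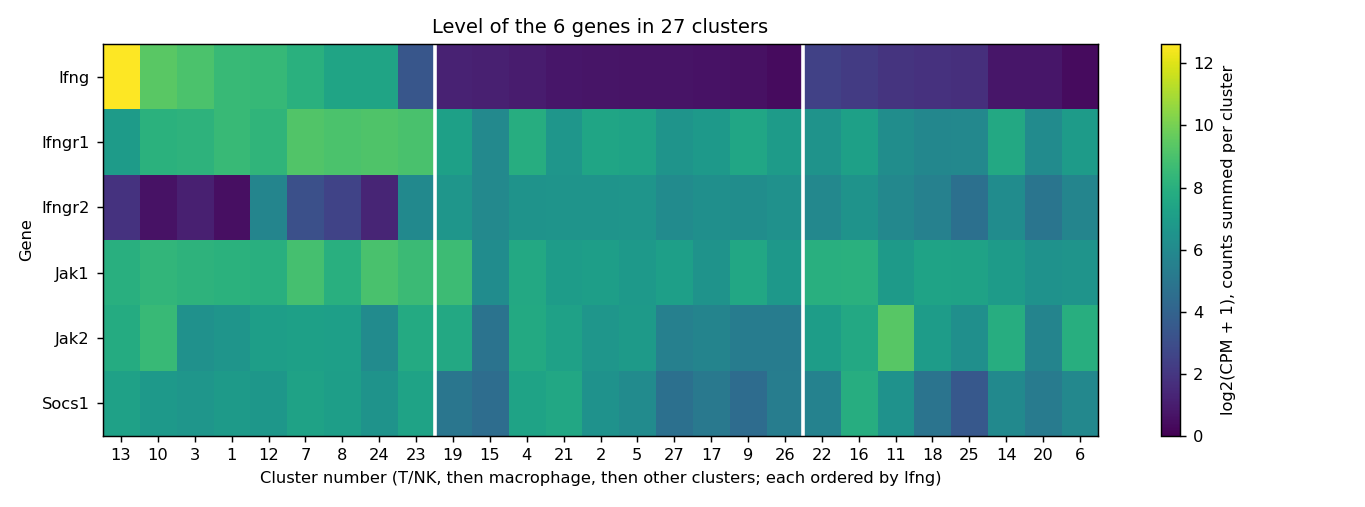
Levels of the 6 genes (lines of the grid) in 27 clusters (columns), as log2(CPM + 1) of counts summed over all tumors; white lines separate T/NK, macrophage and other clusters. Ifng is high in T/NK columns alone, with cluster 13 at 6314 CPM, and Ifngr2 is low in most of the same columns, at 0.45 CPM in cluster 1.

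The receptor chains divided the cell types in another way. Ifngr1, the ligand-binding chain, was found in every cluster, at 593 CPM in cluster 7, 557 CPM in the NK-like cluster 24 and 531 CPM in cluster 8. It stood at 289 CPM in cluster 3 and 120 CPM in cluster 13, and at 60.9 to 229 CPM in macrophage clusters. Ifngr2, the chain that brings Jak2, stood at 60.9 to 99.8 CPM in macrophage clusters. In the lymphocyte clusters 1, 10, 3, 24, 13, 8 and 7 it stood at 0.45, 0.53, 1.17, 1.47, 2.56, 4.74 and 7.37 CPM. The T/NK exceptions were cluster 12 at 51.8 CPM and cluster 23 at 62.0 CPM, the former with the macrophage genes named above, whose part in that value was not tested. Neighbours in the order of Ifngr2 did not differ beyond their spread over tumors. The 244 Ifngr2 UMIs of all T/NK cells made up 0.808% of the gene's UMIs, against 85.7% in macrophages, while T/NK cells held 20.7% of Ifngr1 UMIs.

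The kinases and the inhibitor were spread over all compartments. Jak1 was highest in cluster 24 (504 CPM), cluster 7 (476 CPM) and the macrophage cluster 19 (404 CPM), and lowest in the macrophage cluster 15 (68.3 CPM). Jak2 stood at 640 CPM in the migratory dendritic cell-like cluster 11, beyond the spread of the next, cluster 10 at 362 CPM. Cluster 13 held more Jak2 than cluster 3, at 214 against 82.1 CPM. By UMIs summed over all tumors, Socs1 was highest in the granulocytic-like cluster 16 (233 CPM, 131 UMIs of 529 cells) and in the macrophage clusters 21 (190 CPM) and 4 (159 CPM). Clusters 23 and 7 stood at 158 and 154 CPM, cluster 13 at 147 CPM and cluster 3 lower at 99.5 CPM. Macrophage cluster 9 stood at 20.8 CPM, and no neighbours in this order differed beyond their spread. The genes most like Socs1 over clusters were Igtp (r 0.787), an interferon-induced GTPase gene, Cish (0.768), a cytokine signalling inhibitor of the same family, Il18rap (0.745), Tnip1 (0.734) and Isg20 (0.731).

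Clusters 3 and 13 held Ifng in different ways. Cluster 13 gave 52.3% of the Ifng UMIs of the series from 631 cells and cluster 3 gave 21.2% from 2809 cells, while the other T/NK clusters gave 25.5% from 8581 cells. With each cell thinned to 1000 UMIs, 57.7% of cluster 13 cells and 28.3% of cluster 3 cells had an Ifng UMI, against 11.7% in the other T/NK clusters. The same share in macrophages, which should lack the transcript, was 0.0721%. Without thinning the shares were 65.3% for cluster 13 and 46.6% for cluster 3, at median depths of 2549 and 2823 UMIs per cell, and 0.215% for macrophages at 3481. Among cells with Ifng, the median was 11 UMIs in cluster 13 (412 cells, highest 583) and 2 in cluster 3 (1310 cells, highest 285). In both clusters a small part of the cells held most of the transcript: the 64 cells of cluster 13 and 281 cells of cluster 3 with the most Ifng, about 10% of each, held 65.7% and 64.1% of their cluster's Ifng UMIs. Since the clusters were made from the expression of these cells, these contrasts between clusters describe them and carry no test.

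Within cluster 3, the Ifng level of a tumor did not separate the classes. Over tumors with at least 10 such cells, 9 responder isotype tumors ran from 139 to 688 CPM with a median of 396, and 7 non-responder isotype tumors from 182 to 1233 CPM with a median of 508. Under aPD1, 10 responder tumors ran from 298 to 796 CPM (median 519) and 5 non-responder tumors from 258 to 808 CPM (median 370). The groups overlapped in both treatments. The additive edgeR fit gave a difference of -0.27 ± 0.25 on the log2 scale (responder minus non-responder, SE, edgeR quasi-likelihood test, adjusted p = 0.785), where 0.685% of 3067 genes passed. The fit of the 4 groups gave -0.70 ± 0.30 in isotype tumors (adjusted p = 0.641) and 0.38 ± 0.34 in aPD1 tumors (adjusted p = 0.817), and the test of the difference between them gave 1.09 ± 0.46 (adjusted p = 0.794). Treatment gave 0.55 ± 0.27 in responders (adjusted p = 1 by edgeR) and -0.54 ± 0.37 in non-responders (adjusted p = 0.993).

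The share of cluster 3 cells with an Ifng UMI, thinned to 1000 UMIs, averaged 26.9% ± 6.23 (SD, n = 19) in responder and 30.4% ± 11.5 (SD, n = 12) in non-responder tumors of both treatments. The difference of -3.48 points had a two-sided permutation p of 0.287 (0.478 adjusted over the 5 tests of this family). In isotype tumors alone it was -8.50 points (22.4% ± 3.49, n = 9, against 30.9% ± 14.4, n = 7, exact permutation p = 0.136, adjusted 0.478). Without thinning the isotype difference was -10.5 points with an adjusted exact permutation p of 0.0402. The SD of the non-responder tumors was 7.09 points without thinning and 14.4 points with it. In aPD1 tumors the shares were 31.0% ± 5.21 (n = 10) and 29.8% ± 7.09 (n = 5), a difference of 1.27 points (exact permutation p = 0.704).

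Within cluster 13, levels were higher but too few tumors held the cells for a firm comparison. At least 10 cluster 13 cells were found in 5 responder isotype tumors, at 1905 to 10477 CPM of Ifng with a median of 4193. In 8 responder aPD1 tumors the level ran from 1093 to 20129 CPM with a median of 7250. The 2 non-responder isotype tumors, both CC080, stood at 285 and 4465 CPM, and the single non-responder aPD1 tumor, of CC036, stood at 9417 CPM. The CC080 tumor at 285 CPM lay below all responder isotype tumors, and the other non-responder tumors lay within the responder range of their treatment. The additive fit gave 0.48 ± 0.81 (edgeR, adjusted p = 0.999) for class and 1.01 ± 0.62 (adjusted p = 0.870) for treatment, with 0.261% of 1150 genes called for class. Without CC080, whose tumor at 285 CPM rests on 10 cells and 10 Ifng UMIs, the class difference was -0.17, a value that sets 13 responder tumors against a single non-responder tumor. The share of cells with Ifng was 59.8% ± 13.6 (SD, n = 13) in responders and 60.5% ± 30.01 (SD, n = 3) in non-responders, with an exact permutation p of 0.954. Split by treatment it was 61.4% (n = 5) against 45.8% (n = 2) in isotype tumors (exact permutation p = 0.286), and 58.7% (n = 8) against 90.0% in the single non-responder tumor under aPD1, where no test could be made.

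**Figure D2:**
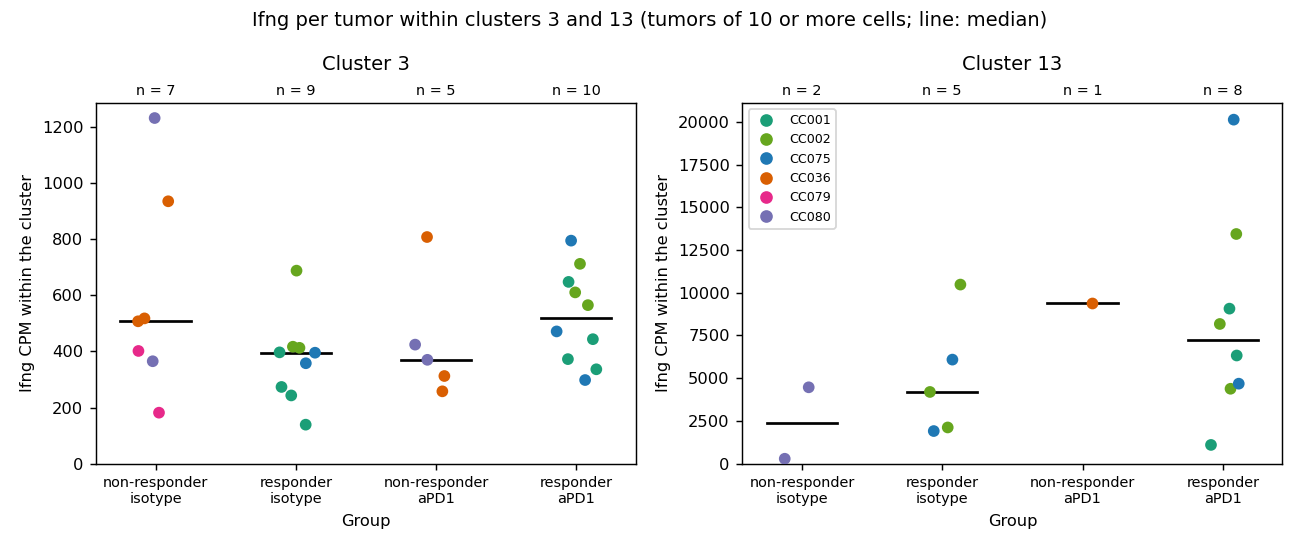
Ifng level (CPM of the cluster's own UMIs) of each tumor within cluster 3 and within cluster 13, for tumors with at least 10 cells of the cluster; points are tumors coloured by strain and lines are medians. Classes overlap in cluster 3, with medians of 508, 396, 370 and 519 CPM from left to right, and non-responder tumors with enough cluster 13 cells number 2 and 1.

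The share of such cells in a tumor was set beside these levels. In aPD1 tumors cluster 3 made up 1.08 to 12.4% of responder cells (median 3.61%) and 0 to 1.78% of non-responder cells (median 0.545%). Here 9 of 10 responder tumors lay above all 9 non-responder tumors. Cluster 13 made up 0.270 to 1.23% (median 0.722%) against 0.0450 to 0.514% (median 0.130%), and 7 of 10 responder tumors lay above all non-responder tumors. In isotype tumors the medians were 4.33% against 0.812% for cluster 3 and 0.692% against 0.294% for cluster 13, and the ranges overlapped more widely. These shares are of sorted cells, which were enriched for CD45, and they are given as levels without a test.

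Expressed as CPM of the whole tumor, the Ifng that came from cluster 3 had medians of 7.02 (responder isotype), 4.93 (non-responder isotype), 16.9 (responder aPD1) and 1.39 (non-responder aPD1). The Ifng from cluster 13 had medians of 16.2, 2.53, 40.4 and 2.86 in the same order, and that from the other T/NK clusters 4.91, 5.28, 14.8 and 2.81. Under aPD1, 8 of 10 responder tumors exceeded all non-responder tumors for the cluster 3 part and 5 of 10 for the cluster 13 part. In such sums, more cells of a type and more RNA per cell cannot be told apart.

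As a share of each tumor's Ifng, cluster 13 gave 48.8% ± 30.5 (SD, n = 10) in responder isotype tumors and 16.1% ± 13.6 (SD, n = 9) in non-responder isotype tumors. Of the 10 responder tumors, 6 lay above all 9 non-responder tumors. The study's text reports clusters 3 and 13 as enriched in responder tumors of these same cells. A test of their shares between classes is therefore not independent of that choice. The difference of 32.8 points in the cluster 13 share had a two-sided exact permutation p of 0.0106, or 0.0424 adjusted over the 4 tests of shares. With the pool as a replicate block, over the 8 pools that held 1 tumor of each class, it was 35.4 points (exact permutation within pools, p = 0.0156) and did not pass (adjusted p = 0.0625). The call was lost, at adjusted p between 0.0625 and 0.381, under 9 of the 11 alternatives run, among them leaving out CC002 (25.7 points), CC075 (25.4), CC079 (26.3) or CC080 (32.4), or the CC002 tumor of 248 cells alone (28.7), with the direction kept throughout. These tests took tumors of a strain as separate, although class is fixed by strain, with 3 strains a class. No test of shares was run with the strain as the replicate. No minimum of cluster 13 cells was set for these shares, and at least 10 were found in 2 non-responder isotype tumors and 1 non-responder aPD1 tumor. Under aPD1 the non-responder tumors left out for too few Ifng UMIs were of CC079, whose aPD1 tumors held 1 to 3 cluster 13 cells. In aPD1 tumors with at least 20 Ifng UMIs the share was 47.0% ± 22.7 (n = 10) against 43.6% ± 40.5 (n = 7), a difference of 3.40 points (exact permutation p = 0.828, adjusted 0.973). Over 11 alternatives, none of which passed, this ran from -23.9 points without CC080 and -8.01 in pools 8 to 12 to 14.2 with the pool as a replicate block, 15.9 in pools 1 to 5 and 17.5 without CC036. Whether the class difference itself changed with treatment was not tested. Cluster 3 gave 28.7% ± 21.5 against 28.4% ± 18.2 in isotype tumors (exact permutation p = 0.973). In aPD1 tumors cluster 3 gave 27.9% ± 14.1 against 17.2% ± 17.6, a difference of 10.7 points (exact permutation p = 0.182, adjusted 0.364), which became 23.6 points without CC080 (adjusted p = 0.024), 2.17 without CC036, 2.90 in pools 1 to 5 and 5.74 with the pool as a replicate block, the last 3 not passing.

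**Figure D3:**
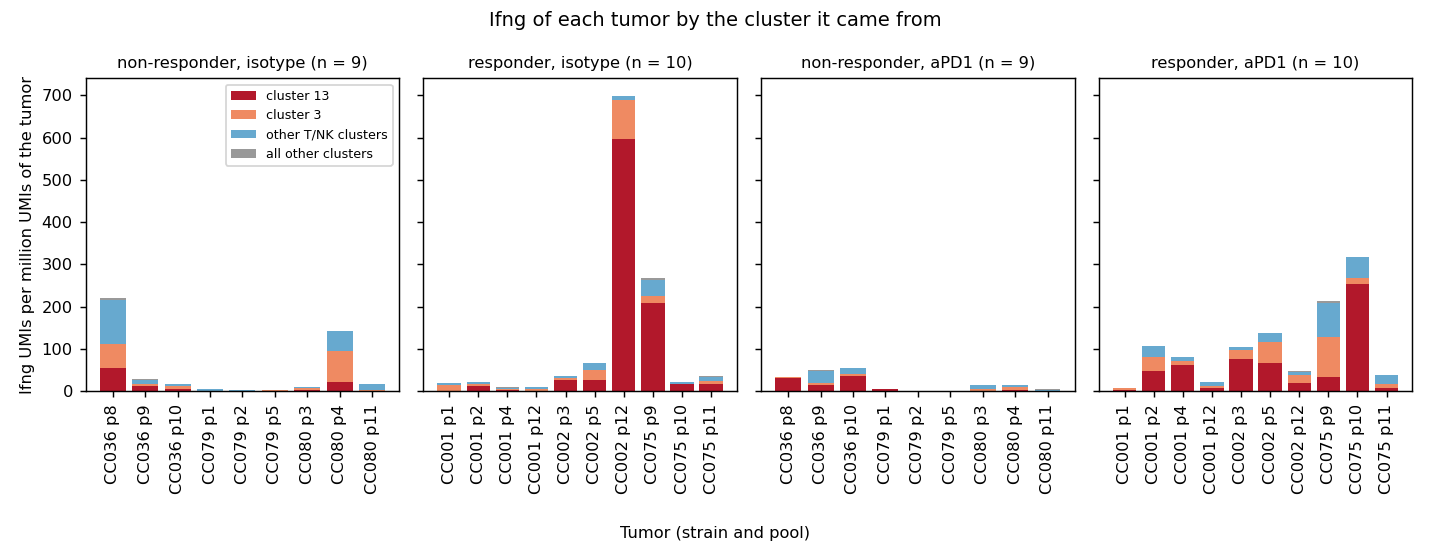
Ifng level (CPM of all UMIs) of each classed tumor (bars, named by strain and pool), split by the cluster of the cell that held them. The tallest bar is the CC002 isotype tumor of pool 12 at 698 CPM, of which cluster 13 gave 598, and the 9 non-responder aPD1 bars stay at or below 55.7.

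Summed over all cells, Ifng was higher in responder than in non-responder tumors under aPD1 by an estimate that edgeR did not call. Responder aPD1 tumors ran from 8.02 to 319 CPM (median 92.8) and non-responder aPD1 tumors from 0.74 to 55.7 CPM (median 14.2). Of these, 6 of 10 responder tumors lay above all 9 non-responder tumors, and 4 of 9 non-responder tumors lay below all responder tumors. The difference was 2.49 ± 0.90 on the log2 scale, or 5.62-fold (edgeR quasi-likelihood test, adjusted p = 0.136), where 2.35% of 13503 genes passed. With the pool as a replicate block it was 3.07 ± 0.84 and passed (adjusted p = 0.0298), as it did by DESeq2 (2.47, adjusted p = 0.0497) and without CC036 (4.09, adjusted p = 0.0457). It did not pass with the strain as the replicate (2.51 ± 1.15, 3 strains a class, adjusted p = 0.67), and the adjusted p ran from 0.0298 to 0.67 over 15 alternatives.

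In isotype tumors the class estimate was not called either. Responder isotype tumors ran from 8.74 to 698 CPM (median 28.4) and non-responder isotype tumors from 2.66 to 219.5 CPM (median 16.1). The ranges overlapped, with 2 of 10 responder tumors above all non-responder tumors. The difference was 1.21 ± 0.88 (edgeR, adjusted p = 1), where 0.215% of genes passed, and it was 0.16 without the CC002 tumor of 248 cells. The test of the class difference in aPD1 against that in isotype tumors gave 1.28 ± 1.22 (edgeR, adjusted p = 0.930).

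Treatment within a class gave no call. Each isotype tumor had an aPD1 tumor of the same strain and pool, a pairing that the main fit did not use. In every alternative, the pool as a replicate block among them, the adjusted p (edgeR or DESeq2) was at least 0.834 in responders and 0.97 in non-responders. In responders aPD1 minus isotype was 0.03 ± 0.83 by edgeR (adjusted p = 1), although the medians were 92.8 and 28.4 CPM. Without the CC002 isotype tumor of 248 cells, the highest of its group, it was 1.08 ± 0.79 (adjusted p = 0.922). Over 15 alternatives it ran from -0.59 in pools 8 to 12 up to 1.60, and it was negative under 5 of them. In non-responders it was -1.25 ± 0.90 (adjusted p = 1), and the difference of the treatment effects is the same test as that of the class differences above. In both treatment contrasts 0% of 13503 genes were called by edgeR and 0 by DESeq2, with 588 and 507 genes at an unadjusted p under 0.05 by edgeR in responders and non-responders.

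By strain, the aPD1 medians of Ifng over all cells ran from 1.11 CPM in CC079 and 14.2 CPM in CC080 to 50.3 CPM in CC036, a non-responder, and 50.7 CPM in CC001, a responder. CC002 stood at 105.6 CPM and CC075 at 212 CPM. The isotype medians were 3.66 CPM in CC079, 14.7 in CC001, 16.1 in CC080, 28.4 in CC036, 34.8 in CC075 and 66.1 in CC002. Among the unclassed hosts, B6 tumors stood at 72.0 to 175.3 CPM under isotype and 61.8 to 173.7 CPM under aPD1, above the median of every non-responder group. CC007 tumors stood at 50.2 and 73.6 CPM under isotype and at 0 and 213 CPM under aPD1, the 0 in a tumor of 53 cells. CC079 had the lowest median of all strains in both treatments.

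Within T/NK cells the Ifng level leaned the same way. Medians were 526 CPM (133 to 2231) in responder isotype, 233 CPM (69.0 to 745) in non-responder isotype, 753 CPM (187 to 4311) in responder aPD1 and 205 CPM (34.7 to 1195) in non-responder aPD1 tumors, and the ranges overlapped. Over both treatments the difference was 1.27 ± 0.44 (edgeR, adjusted p = 0.135), where 2.08% of 7219 genes passed. With the pool as a replicate block it was 1.61 ± 0.42 and passed (adjusted p = 0.0286), and without CC036 it was 2.23 (adjusted p = 0.0114). With the strain as the replicate it was 1.22 ± 0.58 and did not pass (adjusted p = 0.679). Split by treatment it was 1.33 ± 0.63 in isotype and 1.22 ± 0.63 in aPD1 tumors, neither called, where 0.277% and 0.319% of genes passed. The makeup of these cells moved with class as well: the summed level of the CD8 markers Cd8a and Cd8b1 had medians of 929, 389, 754 and 278 CPM in the same order. The 7 macrophage markers summed to medians of 464, 479, 526 and 1119 CPM in these cells, highest in non-responder aPD1 tumors (up to 3751 CPM), and their part in the Ifng level was not tested.

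The receptor chains showed small differences. Ifngr1 summed over T/NK cells had lower medians in responders, with ranges of 294 to 456 CPM (median 374) against 363 to 506 CPM (median 493) in isotype tumors. In aPD1 tumors the ranges were 270 to 472 CPM (median 392) against 332 to 551 CPM (median 512), and in each treatment 5 of 9 non-responder tumors lay above all responder tumors. Over both treatments the difference was -0.25 ± 0.07 (edgeR, adjusted p = 0.0657). It passed with the pool as a replicate block (-0.27, adjusted p = 0.0292), by DESeq2 (-0.25, adjusted p = 0.0157), with library size alone (-0.30, adjusted p = 0.015), without CC080 (-0.27, adjusted p = 0.0485) and, in an alternative added after seeing the data, without cluster 12 (-0.28, adjusted p = 0.0288). With the strain as the replicate it was -0.25 ± 0.11 and did not pass (adjusted p = 0.589). Within cluster 3 alone the Ifngr1 difference was 0.11 ± 0.16 (edgeR, adjusted p = 0.913). The CD8 clusters 3 and 13 held less Ifngr1 (289 and 120 CPM) than clusters 7, 24 and 8 (593, 557 and 531 CPM). The CD8 markers of T/NK cells had higher medians in responders, at 929 against 389 CPM in isotype and 754 against 278 CPM in aPD1 tumors. The part of this makeup in the Ifngr1 difference was not tested. Ifngr2 fell below the count filter in T/NK cells, where its medians were 4.65, 6.21, 7.42 and 14.2 CPM in the order responder isotype, non-responder isotype, responder aPD1 and non-responder aPD1. The macrophage markers in T/NK cells were highest in the same non-responder aPD1 group.

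In macrophages edgeR called no class difference in the receptor and kinase levels, and the ranges overlapped in part. Ifngr1 had medians of 124, 150.5, 135 and 136 CPM in the order responder isotype, non-responder isotype, responder aPD1 and non-responder aPD1. Ifngr2 had medians of 86.4, 87.1, 78.1 and 83.0 CPM, Jak1 125, 133, 121 and 108 CPM, and Jak2 71.5, 70.8, 81.6 and 64.5 CPM. Of the 10 responder isotype tumors, 5 lay below all 9 non-responder tumors for Ifngr1 and 4 for Ifngr2, and under aPD1 4 of 10 did so for Ifngr2. For Jak2 in isotype tumors, 3 of 10 responder tumors lay below all non-responder tumors and 3 of 9 non-responder tumors lay above all responder tumors. In aPD1 tumors the differences were 0.03 ± 0.14 for Ifngr1, -0.06 ± 0.09 for Ifngr2, 0.10 ± 0.16 for Jak1 and 0.08 ± 0.26 for Jak2, all with adjusted p of at least 0.769 by edgeR. In isotype tumors they were -0.12 ± 0.14, -0.06 ± 0.09, -0.13 ± 0.16 and -0.48 ± 0.27, with adjusted p of at least 0.836. The 95% interval of the aPD1 difference ran from -0.24 to 0.12 for Ifngr2 and from -0.43 to 0.60 for Jak2. For Jak2 in isotype tumors it ran from -1.004 to 0.05.

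**Figure D4:**
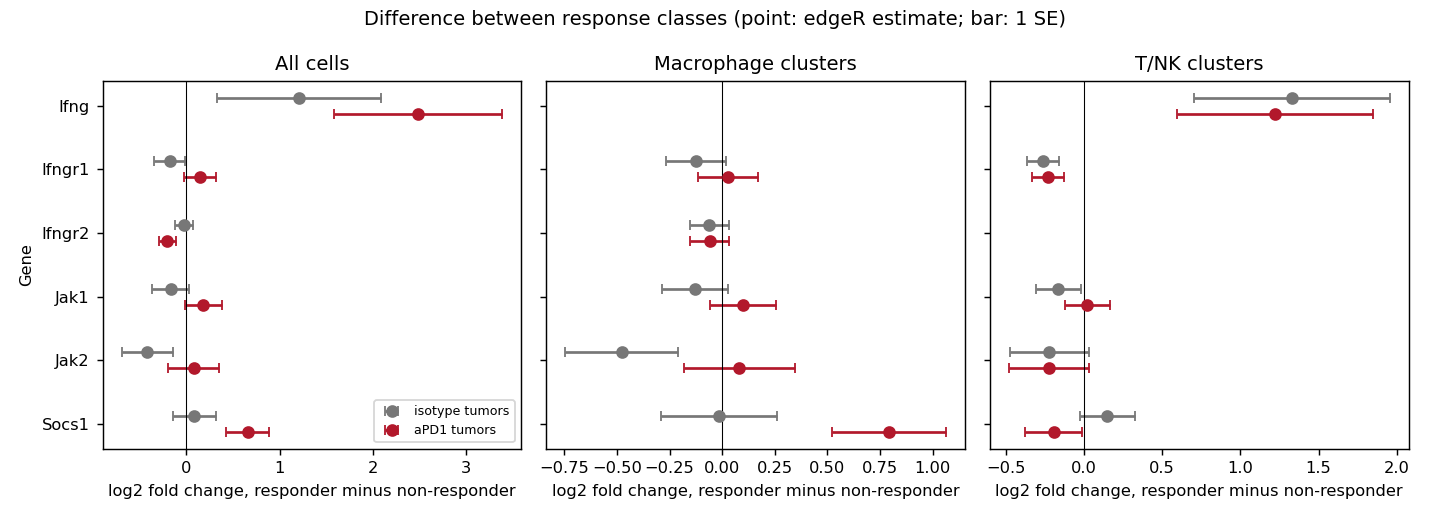
Class difference of each gene (log2 fold change, responder minus non-responder) from edgeR in all cells, macrophage clusters and T/NK clusters, in isotype (grey) and aPD1 tumors (red); bars are 1 SE, and genes under the count filter are left out. Ifng in all cells (2.49) and Socs1 in macrophages (0.79) each lie highest of their own panel in aPD1 tumors, and Ifng in T/NK cells lies at 1.22.

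Socs1, the feedback inhibitor, had the largest class estimate of the 5 genes tested in macrophages of aPD1 tumors, though edgeR did not call it. Responder aPD1 tumors ran from 59.7 to 134 CPM (median 82.5) and non-responder aPD1 tumors from 28.6 to 87.6 CPM (median 56.6). Of these, 3 of 10 responder tumors lay above all non-responder tumors and 6 of 9 non-responder tumors lay below all responder tumors. Isotype tumors ran from 27.1 to 110 CPM (median 55.2) and from 30.8 to 132 CPM (median 54.2), and overlapped almost wholly. The aPD1 difference was 0.79 ± 0.27 (edgeR, adjusted p = 0.0709), where 6.41% of 11873 genes passed. It passed with the pool as a replicate block (0.90 ± 0.27, adjusted p = 0.0328), by DESeq2 (0.78, adjusted p = 0.0439) and without CC036 (1.09, adjusted p = 0.0268). With the strain as the replicate it was 0.76 ± 0.34 and did not pass (adjusted p = 0.488, the highest of 15 alternatives). The isotype difference was -0.01 ± 0.28 (adjusted p = 1), where 0.278% of genes passed, and its sign changed under 6 alternatives.

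For treatment, Socs1 in macrophages differed by 0.55 ± 0.27 between aPD1 and isotype in responders (edgeR, adjusted p = 0.717) and by -0.26 ± 0.28 in non-responders (adjusted p = 1). The test of the difference between these gave 0.81 ± 0.38 (adjusted p = 0.870). In macrophages 0% of 11873 genes were called by edgeR in either treatment contrast, with 817 and 93 at an unadjusted p under 0.05, and DESeq2 called 2 and 0. For Socs1 in responders the adjusted p (edgeR or DESeq2) was at least 0.369 over 15 alternatives, the pool block among them. The smallest strain medians under aPD1 were 38.4 CPM in CC080 and 40.8 CPM in CC079, and CC036 stood at 72.1 CPM, near CC001 at 76.3, CC002 at 81.7 and CC075 at 83.4 CPM. B6 tumors stood at 97.0 to 116 CPM and CC007 tumors at 114 and 150 CPM under aPD1.

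The Socs1 estimate in aPD1 tumors, which edgeR did not call, was not held by a single macrophage cluster. In aPD1 tumors the mean log2 level was higher in responders in all 9 macrophage clusters that gave a value in both classes, by 0.39 (cluster 21) to 2.31 (cluster 19). In isotype tumors the same differences ran from -1.02 (cluster 27) to 1.61 (cluster 9), of both signs. In clusters 21 and 9 the isotype differences (0.41 and 1.61) exceeded those of aPD1 tumors (0.39 and 1.19), and in the other clusters they were lower. Under aPD1 the value of cluster 19 rests on non-responder tumors that reach down to 0 CPM (median 9.63), and that of cluster 9 on 2 responder tumors. The clusters come from the same tumors and are not separate observations. The 6 T/NK markers in the macrophage sums moved with class as well, at 4.29 to 52.9 CPM (median 8.62) in responder aPD1 and 1.79 to 8.53 CPM (median 4.64) in non-responder aPD1 tumors, with 0 of the 6 at 0 in either group. Their group medians in T/NK cells were 3763 to 5462 CPM, and their part in the Socs1 level was not tested. In T/NK cells Socs1 itself differed by -0.19 ± 0.18 between classes in aPD1 tumors (edgeR, adjusted p = 0.788).

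Counted together, the 6 genes gave 144 fits over compartments and contrasts, of which edgeR called 0, with 18 at an unadjusted p under 0.05, and DESeq2 called 4. Over all genes in the same fits edgeR called 1.14% and DESeq2 1.64%, with 8.45% at an unadjusted p under 0.05 by edgeR. With the pool as a replicate block 5 passed: Ifng in all cells (aPD1 tumors, and both treatments together), Ifng and Ifngr1 in T/NK cells (both treatments together), and Socs1 in macrophages (aPD1 tumors). Over all genes that fit called 1.96%. With the strain as the replicate edgeR called 0 of 158 fits, with 9 at an unadjusted p under 0.05, where 0.041% of all genes were called and 3.98% were at such a p. Pools 8 to 12 alone and pools 1 to 5 alone gave 0 calls each, with 2 and 15 fits at an unadjusted p under 0.05 by edgeR, where 0.294% and 0.405% of all genes were called and 7.17% and 6.71% were at such a p.

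Listed genes that interferon gamma is known to induce were mostly higher in responders in macrophages of aPD1 tumors. The gene lists used here and below were chosen with earlier results of these data known. The study's text reports macrophages with high scores for interferon gamma response as enriched in responder tumors of these same cells. The counts are therefore not independent of that report. Of 25 listed target genes, 23 were tested, and 18 were higher in responders and 0 lower, where 4.33% of all genes were higher. Their median difference was 0.86 on the log2 scale, against 0.00 over all genes. Cxcl9, a chemokine that draws T cells, differed by 1.66 ± 0.34 (edgeR, adjusted p = 0.00208), and Gbp4, a guanylate-binding protein gene, by 1.63 ± 0.35 (adjusted p = 0.00321). The antigen presentation genes B2m, Psmb9 and Tap1 differed by 0.50 ± 0.09, 0.69 ± 0.14 and 0.87 ± 0.18, and the transcription factor gene Irf8 by 0.49 ± 0.11. Iigp1, an interferon-induced GTPase gene, differed by 1.74 ± 0.40 and the immunoproteasome gene Psmb8 by 0.59 ± 0.14. Igtp and Gbp7, whose promoters are printed above, differed by 0.91 ± 0.24 (adjusted p = 0.0198) and 0.76 ± 0.22 (adjusted p = 0.0286).

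This count changed with the tumors entered, the unit of replication and the filter. In alternatives added after seeing the data, it was 1 in pools 1 to 5 alone, 0 in pools 8 to 12 alone and 0 with the strain as the replicate, where 0.791%, 0.414% and 0.0865% of all genes were higher. It was 7, 8 and 9 without CC075, CC079 and CC080 (2.04%, 2.14% and 2.54% of all genes), 10 with no filter on low counts (1.34%), and 12 to 21 under the others. In isotype tumors 0 of the 23 targets were called by edgeR (2 at an unadjusted p under 0.05), with a median of 0.23, where 0.278% of all genes were called and 6.71% were at such a p. Between aPD1 and isotype in responders 0 of 23 were called, with 8 at an unadjusted p under 0.05, a median of 0.39 and all 23 estimates above 0, where 0% of all genes were called and 6.88% were at such a p. In non-responders 0 of 23 were called, with 0 at such a p (0.783% of all genes), a median of -0.18 and 1 of 23 estimates above 0. The test of the difference between these treatment effects called 0 of 23, with 10 at such a p (5.7% of all genes), a median of 0.61 and 22 of 23 estimates above 0, and called 0% of all genes.

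Irf1, an early target that acts as a transcription factor itself, had an estimate of 0.78 ± 0.31 in macrophages of aPD1 tumors (edgeR, adjusted p = 0.132). Of 18 genes listed as acting upstream of Ifng, such as cytokines and their receptors, 11 were tested in macrophages of aPD1 tumors. Of these, 5 were higher in responders, where 4.33% of all genes were. These were Il15 (0.64), Il15ra (0.80), Il12rb1 (1.64), Il27 (0.94) and Ebi3 (0.47), genes of the interleukin 15, 12 and 27 systems. In isotype tumors 0 of these 11 were called by edgeR, with 0 at an unadjusted p under 0.05, where 0.278% of all genes were called. Whether the 5 genes act before or after Ifng in these tumors was not tested. Their count under the alternatives is not given. Of all genes in macrophages of aPD1 tumors, 0.0865% were higher with the strain as the replicate, and 0.791% and 0.414% in pools 1 to 5 and 8 to 12. Over all cells of aPD1 tumors 11 of 23 targets and 3 of 18 upstream genes were higher in responders, where 1.64% of all genes were. In T/NK cells over both treatments 1 of 17 tested genes of a list of other signalling chain members was higher, the phosphatase gene Ptpn6 (0.57 ± 0.14, adjusted p = 0.0159), where 0.859% of all genes were higher. In the same comparison 1 of 13 upstream genes was lower, Ebi3 (-1.12 ± 0.28, adjusted p = 0.0223), where 1.22% of all genes were lower, while 0 of 21 targets were called by edgeR. Ptpn6 was also higher in macrophages over both treatments, by 0.17 ± 0.05 (edgeR, adjusted p = 0.0466). It was 1 of 19 tested genes of the chain list there, where 487 of 11873 genes were higher, a similar share. Within cluster 3 over both treatments 1 of 15 tested targets was higher, Gbp4 (0.95 ± 0.24, edgeR, adjusted p = 0.0468), where 0.447% of 4031 genes were.

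Across tumors, Socs1 of macrophages followed Ifng of the whole tumor. Over 38 classed tumors Pearson's r of the log2(CPM + 1) values was 0.774 and Spearman's rho 0.786, each with a permutation p of 1e-05, the smallest that 100000 resamples can give (5e-05 adjusted over 5 genes). Leaving out the 2 tumors farthest from the median of Ifng, r was 0.782. Within responders r was 0.651 (n = 20, permutation p = 0.00185) and within non-responders 0.840 (n = 18, permutation p = 2e-05). It was 0.772 in isotype and 0.810 in aPD1 tumors, 0.821 in pools 1 to 5 and 0.639 in pools 8 to 12 (permutation p = 0.00436, adjusted 0.0218). Spearman's rho in pools 8 to 12 was 0.579 and did not pass (adjusted permutation p = 0.065). Tumors of a strain share a genome and tumors of a pool share a library, so they are not fully independent points. No correlation with Ifng is given for macrophage genes outside these 5, so whether the values stand apart from theirs was not tested.

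The kinases gave lower correlations with Ifng over all tumors, and the receptors gave values near 0. Jak1 of macrophages gave r 0.544 (rho 0.566, adjusted permutation p = 0.0013) and Jak2 r 0.501 (rho 0.570, adjusted permutation p = 0.0023). In pools 8 to 12 these were 0.415 and 0.171 and did not pass (adjusted permutation p = 0.217 and 0.501). Without the 2 farthest tumors they were 0.539 and 0.488. Ifngr1 gave r 0.06 and Ifngr2 r 0.09, with permutation p of 0.736 and 0.573, and both changed sign under some of the alternatives. Within responders Ifngr2 gave r 0.561 (n = 20, adjusted permutation p = 0.0233), which was 0.390 without the 2 farthest tumors (adjusted permutation p = 0.137), and within non-responders it gave -0.17. By treatment Ifngr2 gave 0.494 in isotype tumors (adjusted permutation p = 0.0404) and -0.37 in aPD1 tumors (adjusted permutation p = 0.143). Jak1 and Jak2 gave 0.468 and 0.540 within responders and 0.789 and 0.772 within non-responders. The responder values did not pass without the 2 farthest tumors (adjusted permutation p = 0.116 and 0.0621), nor did those of aPD1 tumors, at 0.468 and 0.486 (adjusted permutation p = 0.0733 for both).

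**Figure D5:**
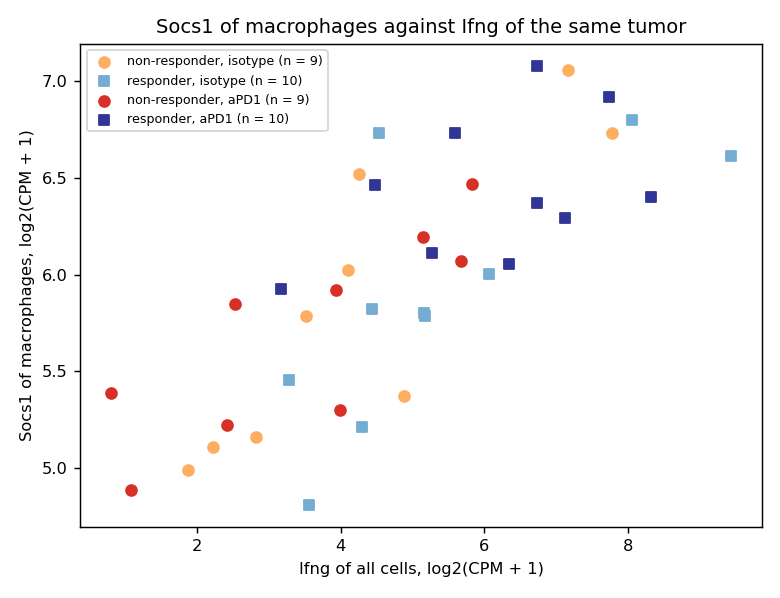
Socs1 of macrophages against Ifng of all cells, both log2(CPM + 1), with 1 point per classed tumor (38 tumors; colour gives class and treatment). Socs1 rises with Ifng over the whole range (r 0.774), and the responder aPD1 tumors all stand at or above 59.7 CPM of Socs1.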

How the data were processed

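Tumors were taken as pool by strain by treatment from the deposited cell table. The authors deposited raw UMI counts per gene and cell, made with Cell Ranger on GRCm38 (mm10) and Seurat 5.0.1, after removing cells above 15% mitochondrial or 45% ribosomal counts; how doublets were treated is not given in the sources used here, and none were called. Clusters are the deposited ones and were given names from markers. Counts were summed per tumor over all cells, macrophage clusters, T/NK clusters (at least 20 cells) and clusters 3 and 13 (at least 10 cells). They were tested with edgeR 4.0.16 in R 4.3.3 (TMM, filterByExpr, robust quasi-likelihood, Benjamini-Hochberg adjustment over all genes, threshold 0.05). The fit was tried on simulated macrophage sums for the class contrast in aPD1 tumors alone. That simulation held no pool or strain effect and did not cover clusters 3 and 13. Classes come from the study's text, not the sample labels. DESeq2 1.42.0, pool as a block and tumors or strains left out were alternatives. The main fits did not use the pairing of isotype and aPD1 tumors by strain and pool. Shares and correlations used permutation tests (two-sided, 100000 resamples where not exact, Python 3.11.15, scipy 1.17.1), and shares of cells used counts thinned to 1000 UMIs per cell. The permutation tests took tumors of a strain as separate, and none was run with the strain as the replicate. An animal identifier stood on 2 CC080 tumors, whose removal was an alternative.

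The labels give 4 specimens per pooled library, so pool is a shared batch: deviations from group means over 8229 genes correlated with a median r of 0.322 between same-pool tumors of other groups (53 pairs, -0.488 to 0.864) and -0.0446 between pools (488 pairs). All 6 genes and those passing in a fixed list, at most 6 per list and contrast by p, with Irf1 and Cxcl9, were named, except an item that is not reported here. Igtp is named as the gene most like Socs1 and Gbp7 as named in another contrast. The members and lists were chosen with earlier results of these data known. Promoters are from RefSeq, positions from GENCODE.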

Additional observations from a re-analysis of the deposited data

Results flagged for a closer look

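Among 50 groups of 4 to 10 tumors tested with Dixon's criterion, 6 held a tumor far from the others. The criterion's rate of about 1 in 20 groups holds for separate groups of normally spread values. The groups here reuse the same tumors and hold untransformed levels and shares, so the 6 cannot be set against that rate. Each of the 6 flagged values was the highest of its group. The CC002 isotype tumor of pool 12, of 248 cells, gave 3 of these: Ifng of all cells at 698 CPM (the next of the 10 responder isotype tumors at 267), Ifng of cluster 3 at 688 CPM (next 417, n = 9) and Ifngr2 of macrophages at 124 CPM (next 91.7, n = 10). The CC075 aPD1 tumor of pool 10 held Ifng in T/NK cells at 4311 CPM, against 954 CPM for the next of 10 responder aPD1 tumors, with 22 cluster 13 cells giving 1868 Ifng UMIs. The CC079 aPD1 tumor of pool 1 held Ifngr2 in T/NK cells at 61.9 CPM, against 20.8 CPM for the next of 9 non-responder aPD1 tumors. The CC075 isotype tumor of pool 9 held Jak1 in macrophages at 176 CPM, against 138 CPM for the next of 10 responder isotype tumors. The causes were not tested.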

How the results depend on the processing

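Of 300 values under alternatives, 228 were labelled the same as the main value, 18 weaker and 22 stronger, and 32 changed sign. Weaker and stronger mean a call lost or gained with the direction kept, or a lower or higher count. For estimates, the same means that direction and side of the threshold were kept, or direction alone where no p could be given. The count of calls over the 6 genes was the same when it stayed at 0, and the count of targets when it stayed near the main count. The cause of the changes was not tested in any case. The number of strains (3 per class) and of non-responder tumors with 10 or more cluster 13 cells (3) limits the precision.

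For Ifng of all cells, the class difference in aPD1 tumors was 2.47 by DESeq2, 3.07 with the pool as a replicate block and 4.09 without CC036, all passing, and ranged from 1.86 to 4.09. In isotype tumors it was -0.14 in pools 1 to 5. The treatment difference in responders was -0.095 by DESeq2, -0.029 with library size alone, -0.59 in pools 8 to 12, -0.27 without CC001 and -0.53 without CC075, and 1.60 at its highest. Ifng in cluster 13 differed by -0.53 in pools 1 to 5 and -0.17 without CC080, each against 1 non-responder tumor, assumed to vary like the others. Socs1 of macrophages passed in aPD1 tumors at 0.78 by DESeq2, 0.90 with the pool block and 1.09 without CC036. In isotype tumors it was 0.055 with the pool block, 0.071 in pools 8 to 12, 0.13 with the strain as replicate, and 0.32, 0.12 and 0.26 without CC001, CC036 and CC080.

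Calls over the 6 genes, each in 144 to 146 fits, numbered 4 by DESeq2, 5 with the pool block and 1 with library size alone. Over all genes 1.64%, 1.96% and 1.28% were called in the same fits. Without CC001, CC036 and CC080 they numbered 1, 5 and 1 (1.45%, 1.33% and 1.15% of all genes). Without cluster 12 in T/NK cells (added after seeing the data) 1 of 30 fits was called (0.434% of all genes). The strain as replicate gave 0 (0.041% of all genes). The pool block changed no other call of the 6 genes in these fits. Targets called in macrophages of aPD1 tumors (alternatives added after seeing the data) numbered 10 with no filter (1.34% of all genes were higher), 1 in pools 1 to 5 (0.791%), 0 in pools 8 to 12 (0.414%) and 0 with the strain as replicate (0.0865%). They numbered 7, 8 and 9 without CC075, CC079 and CC080 (2.04%, 2.14% and 2.54%).

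The cluster 13 share of Ifng in isotype tumors lost its call at 35.4 points with the pool as a replicate block (added after seeing the data), 29.5 (50 UMIs minimum), 31.2 (pools 1 to 5), 32.7 (pools 8 to 12), 28.7 (without the tumor under 500 cells, added after seeing the data) and 25.7, 25.4, 26.3 and 32.4 (without CC002, CC075, CC079 and CC080). In aPD1 tumors it was -8.01 in pools 8 to 12 and -23.9 without CC080. The cluster 3 share was -0.97 with the pool block, -0.017 with 50 UMIs minimum, -3.43 in pools 8 to 12, -11.6 without CC001 and -2.96 without CC079 in isotype tumors, and 23.6 without CC080 in aPD1 tumors, which passed. Cluster 3 cells with Ifng differed by -10.5 points in isotype tumors without thinning, which passed, and in aPD1 tumors by -2.30 thinned to 2000 UMIs and -3.28 in pools 8 to 12. Cluster 13 cells with Ifng differed by 2.24 with a 5-cell minimum and 3.55 in pools 8 to 12 over both treatments, and in isotype tumors by -3.99 thinned to 2000 UMIs and -1.24 in pools 1 to 5. The correlation of Ifng with macrophage Ifngr1 was -0.23 in pools 8 to 12 and -0.041 without the 2 farthest tumors, and with Ifngr2 -0.023 in pools 1 to 5, -0.10 without the tumor under 500 cells and -0.049 without the 2 farthest tumors.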
